A study of Mus musculus with 9 samples.

Results

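The genes described here are 10 members of the ETS family of transcription factors: Ets2, Erg, Ets1, Fli1, Etv1, Etv4, Etv5, Etv6, Elk3 and Elk4. They were chosen by name, Ets2 because it lies between Erg and Tmprss2 and Erg because it is the gene at the engineered end of the interval. Each was read from the brightest probe set that lists only its symbol. They are 10 of 22180 named genes on the array, and all 10 were among the 16635 genes that passed a filter on low signal and were tested.

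The data were Affymetrix Mouse Gene 2.0 ST arrays of laser-captured prostate epithelium from male mice of 12 months and mixed strain background, 1 array per capture and 9 arrays in all. There were 3 groups of 3 arrays: poorly differentiated adenocarcinoma of 3 mice with PbCre and T-3Mb-Erg/+ (called tumours here), high-grade prostatic intraepithelial neoplasia (HG-PIN, dysplastic cells that fill the gland without invading) from those 3 animals, and HG-PIN of 3 PbCre mice without the T-3Mb-Erg allele (called controls). PbCre expresses Cre recombinase from the probasin promoter in prostate epithelium, and mice of both genotypes carried it together with a further engineered allele, so control lesions are not normal tissue. The title names loss of 1 copy of the genes between Tmprss2 and Erg as the subject of the study. Which Erg sequence the allele carries is not stated in the labels, so the probe set read here may not detect its product. Values are log2 of the deposited intensities, and ± gives the SD over 3 arrays.

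ETS factors share a DNA-binding domain that recognises a GGAA core. ERG and ETV1 are activated in human prostate cancer by fusion to the androgen-driven promoter of TMPRSS2 and of other genes, and ETV4 and ETV5 are fused more rarely. Many ETS proteins, ETS2 and the ternary complex factors ELK3 and ELK4 among them, are phosphorylated by MAP kinases. ERG, FLI1 and ETS1 are also known for high levels in endothelium or blood cells, and ELF3 and EHF for their place in epithelia.

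The promoters of Ets2 and Erg are shown because these genes mark the interval and its end, and that of Elk4 because its first window alone among 13 holds the full ETS consensus CCGGAAGT. Each line gives the 250 bases before an annotated start from RefSeq (GRCm38.p6), 5′ to 3′ on the gene's strand, with capitals on every GGAA core of either strand. The windows are chr16:95702157-95702406 on the plus strand for Ets2, chr16:95586594-95586843 on the minus strand for Erg and chr1:132007370-132007619 on the plus strand for Elk4.
Ets2: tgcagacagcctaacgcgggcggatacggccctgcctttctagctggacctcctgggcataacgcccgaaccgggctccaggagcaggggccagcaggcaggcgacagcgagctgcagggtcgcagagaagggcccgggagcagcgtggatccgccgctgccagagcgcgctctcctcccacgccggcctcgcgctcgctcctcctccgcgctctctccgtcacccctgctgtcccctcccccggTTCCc
Erg: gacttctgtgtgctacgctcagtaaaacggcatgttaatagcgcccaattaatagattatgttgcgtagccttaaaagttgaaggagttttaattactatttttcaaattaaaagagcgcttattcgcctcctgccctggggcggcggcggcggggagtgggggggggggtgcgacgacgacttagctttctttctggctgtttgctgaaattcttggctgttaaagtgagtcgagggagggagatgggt
Elk4: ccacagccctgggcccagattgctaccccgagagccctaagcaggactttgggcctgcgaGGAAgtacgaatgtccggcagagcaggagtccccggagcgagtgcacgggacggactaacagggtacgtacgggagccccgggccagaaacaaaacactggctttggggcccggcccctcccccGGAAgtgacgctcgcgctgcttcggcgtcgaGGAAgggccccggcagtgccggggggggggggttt
The table held 13 such windows for 7 of the 10 genes. GGAA was present in 11 of the 13, with 0 to 4 matches in a window, and in 93.4% of all 32851 promoters. The Erg window shown holds no match, and its other 2 starts hold 4 and 2. CCGGAAGT was present on either strand in 1 of the 13 windows, the Elk4 window above, and in 2.88% of all promoters. These matches describe the letters and are not evidence of binding.

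None of the 10 genes passed the test in any of the 3 comparisons. The test was limma over all 16635 genes with Benjamini-Hochberg adjustment, and a gene was called at an adjusted p under 0.05. In tumours against T-3Mb-Erg HG-PIN 0 of 10 were called, where 0.283% of all genes were. Between the HG-PIN groups 0 of 10 were called, where 0% of all genes were. In tumours against control HG-PIN 0 of 10 were called, where 0.18% of all genes were. Before adjustment, a p under 0.05 was reached by Erg in tumours against T-3Mb-Erg HG-PIN, where 3.67% of all genes were higher and 3.98% lower by that measure. It was reached by 0 of the 10 between the HG-PIN groups (all genes, 1.83% higher and 2.27% lower) and by Erg and Ets1, both higher, in tumours against control HG-PIN (all genes, 4.74% higher and 4.59% lower). The comparisons share arrays, so they are not independent of each other. The 95% interval of the change lay within 1 log2 unit of 0 for 4, 8 and 5 of the 10 genes.

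The median log2 change of the 10 genes was 0.18 in tumours against T-3Mb-Erg HG-PIN, with 7 positive and 3 negative, where the median of all genes was -0.01. It was 0.18 in T-3Mb-Erg HG-PIN against control HG-PIN, with 8 positive and 2 negative (all genes, 0.00). It was 0.39 in tumours against control HG-PIN, with 8 positive and 2 negative (all genes, -0.03). Positive changes made up 48.9%, 49.5% and 46.3% of all genes in the same order.

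**Figure D1:**
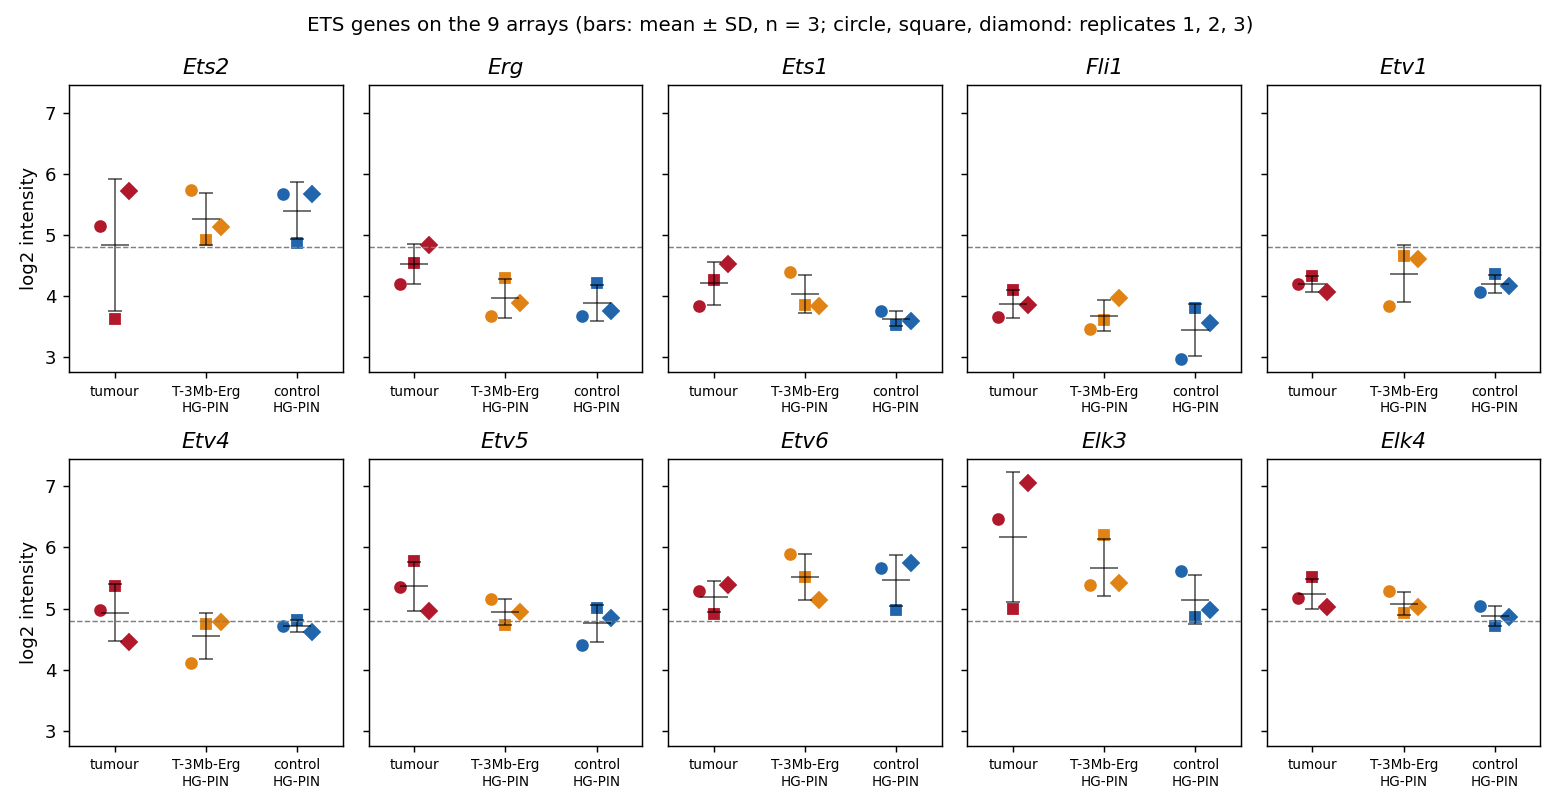
Log2 intensity of each ETS gene on the 9 arrays, with tumours in red, T-3Mb-Erg HG-PIN in orange and control HG-PIN in blue. Circles, squares and diamonds are replicates 1 to 3 (the same 3 mice in the first and middle group), bars are mean ± SD, and the dashed line is the receptor level of 4.80. Ets2 and Elk3 have their widest scatter in tumours.

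Several of these genes were dim. A gauge of background was taken from 1394 olfactory and vomeronasal receptor genes, whose mean log2 intensity had a 95th percentile of 4.80, called the receptor level here. Means over the 9 arrays lay above it for 5 of the 10 genes, Ets2 (5.16), Etv5 (5.02), Etv6 (5.39), Elk3 (5.66) and Elk4 (5.07). They lay below it for the other 5, Erg (4.12), Ets1 (3.96), Fli1 (3.66), Etv1 (4.25) and Etv4 (4.73), so a change in these can be understated.

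Ets2 (probe set 17327465), a MAP kinase-responsive activator and the gene of this set inside the interval, had log2 intensities of 5.14, 3.63 and 5.72 in tumours, against 5.74, 4.92 and 5.13 in T-3Mb-Erg HG-PIN, with 5.66, 4.86 and 5.66 in control HG-PIN. All groups overlapped, and the lowest value by more than 1 unit was tumour replicate 2. The means were 4.83 ± 1.08 in tumours, 5.26 ± 0.43 in T-3Mb-Erg HG-PIN, against 5.40 ± 0.46 in control HG-PIN (n = 3 each), and neighbours in this order differed by less than their spread. Tumours differed from T-3Mb-Erg HG-PIN by -0.43 (SE 0.48, 95% interval -1.48 to 0.62, limma adjusted p = 0.974) and from control HG-PIN by -0.57 (SE 0.48, interval -1.61 to 0.48, limma adjusted p = 0.812). T-3Mb-Erg HG-PIN differed from control HG-PIN by -0.14 (SE 0.48, interval -1.18 to 0.91, limma adjusted p = 0.998). All 3 intervals include 0 and also -1, a signal 2-fold lower. Within the 3 mice the tumour differed from the HG-PIN lesion by -0.60, -1.29 and 0.59, so 2 were lower and 1 was higher. Without tumour replicate 2 the difference of tumours from T-3Mb-Erg HG-PIN was 0.20 and that from control HG-PIN 0.07, with the sign turned in both. Without tumour replicate 3 they were -0.90 and -1.03, and the first was -0.17 or -0.74 when replicate 1 or 2 of T-3Mb-Erg HG-PIN was left out.

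The Ets2 level followed how far the signal of an array spread. The share of all genes that do so was not counted, so nothing here marks this as particular to Ets2. The spread was measured as the 95th percentile of log2 intensity over all probe sets, which ran from 6.15 to 6.65 in tumours, from 6.26 to 6.61 in T-3Mb-Erg HG-PIN, against 6.16 to 6.49 in control HG-PIN. Over the 9 arrays, which came from 6 mice and so are not all independent, Ets2 correlated with it at r = 0.81 (exact permutation p = 0.00246, two-sided; adjusted p = 0.0246 over the 10 genes). Spearman's rank correlation was 0.95 (exact permutation p = 0.000353, two-sided; adjusted p = 0.00353). Without the 2 arrays farthest from the median r was 0.758, and after the group means were taken out it was 0.940. Tumour replicate 2, the array with the lowest Ets2, also had the narrowest signal. The direction was shared by Etv6 (r = 0.781, exact permutation p = 0.0162, adjusted p = 0.054; rank correlation 0.75, exact permutation p = 0.0255, adjusted p = 0.085; r = 0.500 without the 2 farthest arrays) and opposite for Etv4 (r = -0.744, exact permutation p = 0.0159, adjusted p = 0.054; rank correlation -0.817, exact permutation p = 0.0108, adjusted p = 0.0539; r = -0.641 without them), neither of which passed. The other 7 genes had r from -0.692 (Etv1) to 0.598 (Elk3), with adjusted p from 0.0996 to 0.89. With this spread as a term in the limma fit, Ets2 differed by -0.50 between tumours and T-3Mb-Erg HG-PIN (adjusted p = 0.421), by -0.27 between the HG-PIN groups (adjusted p = 0.862) and by -0.77 between tumours and control HG-PIN (adjusted p = 0.165).

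**Figure D2:**
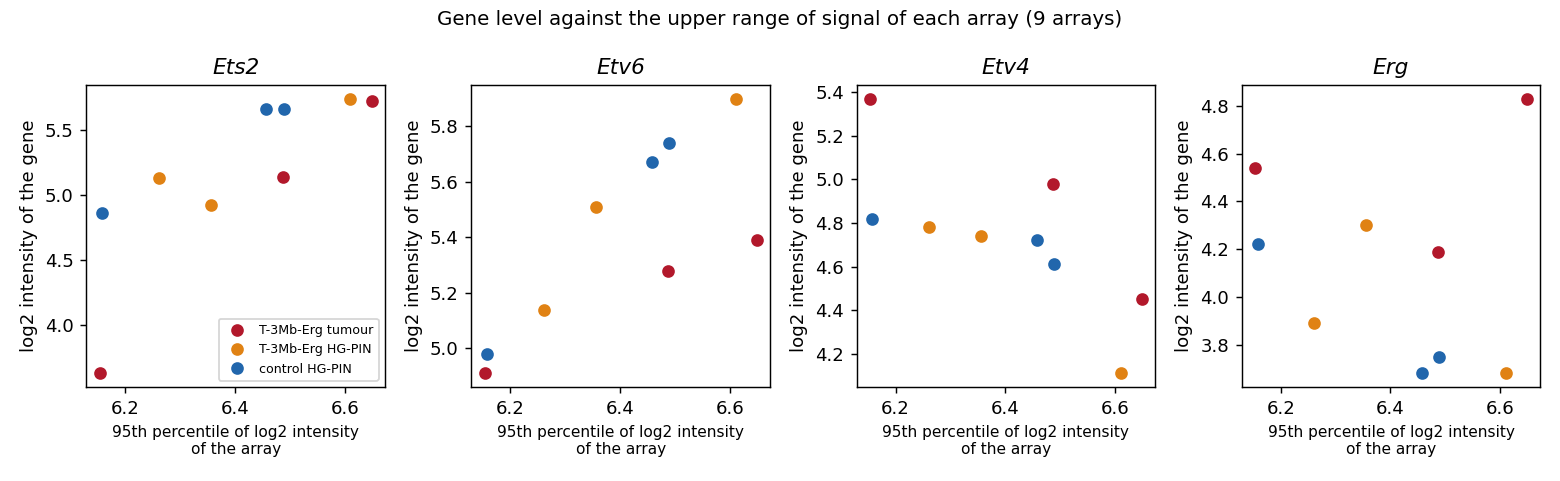
Log2 intensity of Ets2, Etv6, Etv4 and Erg (vertical axes, each with its own scale) against the 95th percentile of log2 intensity of each array, 1 point per array and 9 in all, coloured by group. Ets2 and Etv6 are higher on arrays of wider signal, Etv4 is lower, and Erg shows no such order (r = -0.119).

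Erg (probe set 17332358), a factor that endothelium depends on, had log2 intensities of 4.19, 4.54 and 4.83 in tumours, against 3.68, 4.30 and 3.89 in T-3Mb-Erg HG-PIN, with 3.68, 4.22 and 3.75 in control HG-PIN. The tumour array of each of the 3 mice was above its HG-PIN array, by 0.51, 0.24 and 0.94, but tumour replicate 1 lay below the highest array of both HG-PIN groups. Erg and Etv5 were higher in 3 of 3 mice, that is 2 of 10 genes, where 11.5% of all genes were. The means were 4.52 ± 0.32 in tumours, 3.96 ± 0.32 in T-3Mb-Erg HG-PIN, against 3.88 ± 0.29 in control HG-PIN (n = 3 each). The change in tumours was 0.56 against T-3Mb-Erg HG-PIN (1.48-fold, SE 0.25, limma adjusted p = 0.628) and 0.64 against control HG-PIN (1.56-fold, SE 0.25, limma adjusted p = 0.419). Between the HG-PIN groups it was 0.08 (interval -0.47 to 0.62). Of the 9 arrays, 1 tumour array was above the receptor level. Tmprss2, the androgen-regulated protease gene at the other end of the interval, had 4.45, 4.63 and 5.12 in tumours, against 6.50, 6.34 and 6.66 in T-3Mb-Erg HG-PIN, with 6.37, 4.95 and 6.59 in control HG-PIN (tumours against T-3Mb-Erg HG-PIN -1.77, limma adjusted p = 0.141). It passed in 3 of 18 settings, with array weights (adjusted p = 0.0135), with the array signal spread as a term (0.0293) and without control HG-PIN replicate 2 (0.0297).

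Fli1, the closest relative of Erg and a factor of blood and endothelial cells, had 3.65, 4.09 and 3.86 in tumours, against 3.46, 3.61 and 3.96 in T-3Mb-Erg HG-PIN, with 2.97, 3.80 and 3.56 in control HG-PIN. The groups overlapped, and every value lay below the receptor level. The change was 0.19 in tumours against T-3Mb-Erg HG-PIN (interval -0.36 to 0.74), 0.24 between the HG-PIN groups (interval -0.31 to 0.78) and 0.43 in tumours against control HG-PIN (interval -0.12 to 0.97; 0.19 without control HG-PIN replicate 1).

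Ets1, the paralogue of Ets2 and a factor of lymphoid and endothelial cells, had 3.84, 4.26 and 4.53 in tumours, against 4.40, 3.86 and 3.84 in T-3Mb-Erg HG-PIN, with 3.76, 3.53 and 3.59 in control HG-PIN. It was the 1 gene of the 10 whose groups did not overlap in a comparison: both T-3Mb-Erg groups lay wholly above control HG-PIN. Groups did not overlap for 10.1% of all genes between the HG-PIN groups and for 13.7% between tumours and control HG-PIN, so 1 of 10 is near the background in both. No gene of the 10 lay wholly below the group it was set against, where 6.43%, 5.25% and 7.51% of all genes did in the 3 comparisons. The change was 0.41 between the HG-PIN groups (SE 0.23, limma adjusted p = 0.998) and 0.58 between tumours and control HG-PIN (SE 0.23, limma adjusted p = 0.445). All 9 arrays were below the receptor level.

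Because Erg, Fli1 and Ets1 are genes of endothelium and blood, markers of those cells were read on the same arrays. Of 12 endothelial markers 1, Cdh5, had a mean above the receptor level. Their mean level was 4.0, 4.04 and 4.59 in tumours, against 3.66, 3.96 and 3.90 in T-3Mb-Erg HG-PIN, with 3.57, 3.91 and 3.6 in control HG-PIN. Tumour replicate 3 stood highest for these markers, for Erg and for Ets1. Fli1 did not share this, being highest on tumour replicate 2 (4.09, against 3.86 on tumour replicate 3). Tek and Esam, and the leukocyte markers Ptprc and Cd3g, lay below the signal filter. None of the 10 tested endothelial markers was called in tumours against T-3Mb-Erg HG-PIN. The smallest p values were those of Emcn (1.02, limma adjusted p = 0.299) and Pecam1 (0.87, limma adjusted p = 0.506), both membrane proteins of vessels. Of the 10 tested endothelial markers 8 had a positive change in that comparison and 2 a negative one, with a median of 0.26. Neither Erg nor any of these markers passed the test, and the part of endothelial cells in the Erg level was not tested. Of 12 leukocyte markers 5 had a mean above the receptor level, and none of the 10 tested was called. Their mean level ran from 3.90 to 4.63 in tumours, from 4.36 to 4.65 in T-3Mb-Erg HG-PIN, against 4.19 to 4.30 in control HG-PIN. The capture was aimed at epithelial cells within lesions, and in such bulk samples fewer cells of a type and less RNA per cell cannot be told apart.

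**Figure D3:**
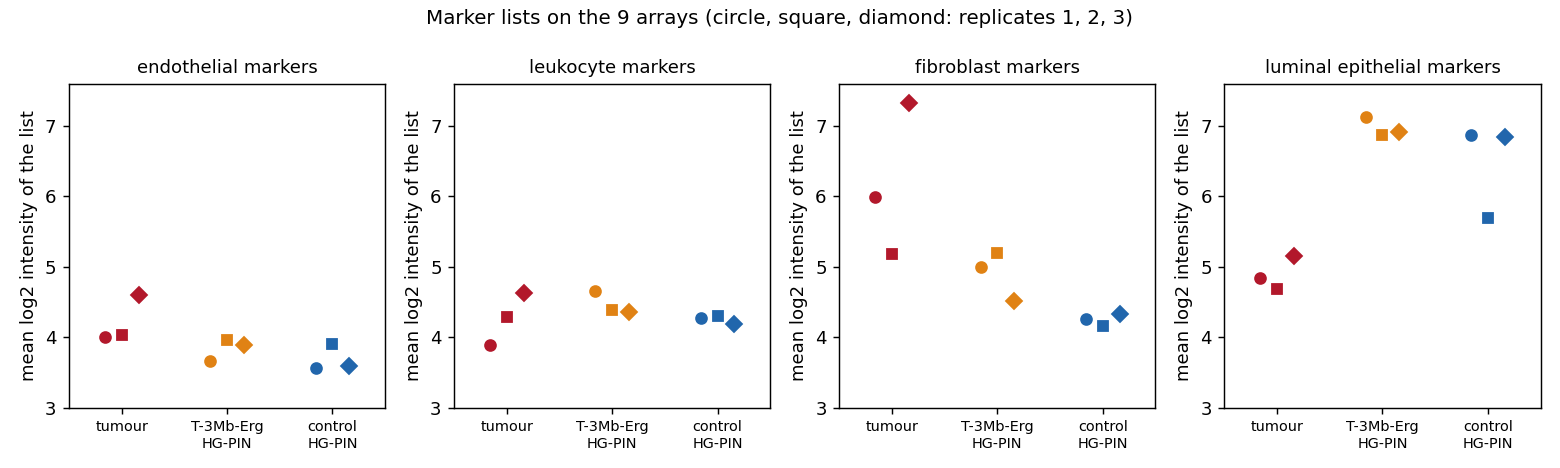
Mean log2 intensity of 4 marker lists on the 9 arrays, by group, with circles, squares and diamonds for replicates 1 to 3. Endothelial markers are highest on tumour replicate 3 (4.59), fibroblast markers reach 7.33 on the same array, and luminal markers lie between 4.69 and 5.16 in tumours, below all HG-PIN arrays.

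Etv1, Etv4 and Etv5 form the PEA3 subfamily, activators whose transcription follows MAP kinase and fibroblast growth factor signalling. Etv4 had 4.98, 5.37 and 4.45 in tumours, against 4.11, 4.74 and 4.78 in T-3Mb-Erg HG-PIN, with 4.72, 4.82 and 4.61 in control HG-PIN. Etv5 had 5.36, 5.77 and 4.96 in tumours, against 5.16, 4.73 and 4.94 in T-3Mb-Erg HG-PIN, with 4.41, 5.01 and 4.85 in control HG-PIN. Tumour replicate 2 was the highest array for both, and tumours overlapped with HG-PIN of either genotype. The change of Etv4 was 0.39 in tumours against T-3Mb-Erg HG-PIN (interval -0.23 to 1.01) and that of Etv5 0.42 (interval -0.20 to 1.04). Without tumour replicate 2 these were 0.15 for Etv4 and 0.24 for Etv5. The Etv4 change was 0.66 without tumour replicate 3 and 0.18 when replicate 1 of T-3Mb-Erg HG-PIN was left out. Against control HG-PIN Etv5 differed by 0.61 in tumours (1.52-fold, SE 0.28, limma adjusted p = 0.546) and Etv4 by 0.22 (SE 0.28, limma adjusted p = 0.897). Etv1 ranged from 4.07 to 4.32 in tumours, from 3.83 to 4.66 in T-3Mb-Erg HG-PIN and from 4.06 to 4.36 in control HG-PIN, all below the receptor level. Its change was -0.17 in tumours against T-3Mb-Erg HG-PIN (interval -0.71 to 0.37) and 0.17 between the HG-PIN groups (interval -0.36 to 0.70). A dimmer probe set for each of Etv1 (mean 2.34) and Etv5 (mean 3.59) gave the opposite sign in tumours against T-3Mb-Erg HG-PIN, 0.10 and -0.11, with limma adjusted p of 0.995 and 0.994.

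Etv6, a repressor of the family with roles in blood formation, had 5.28, 4.91 and 5.39 in tumours, against 5.90, 5.51 and 5.14 in T-3Mb-Erg HG-PIN, with 5.67, 4.98 and 5.74 in control HG-PIN. All 9 arrays lay above the receptor level and the groups overlapped. In each group the lowest array was the one of narrowest signal. The change was -0.32 in tumours against T-3Mb-Erg HG-PIN (interval -1.01 to 0.37), 0.06 between the HG-PIN groups and -0.27 in tumours against control HG-PIN (interval -0.95 to 0.42). The first of these was -0.18 without tumour replicate 2, and -0.12 or -0.54 when replicate 1 or 3 of T-3Mb-Erg HG-PIN was left out.

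Elk3 and Elk4 are ternary complex factors, which bind with serum response factor at immediate early genes, Elk3 acting mainly as a repressor. Elk3 had 6.46, 5.0 and 7.06 in tumours, against 5.38, 6.2 and 5.41 in T-3Mb-Erg HG-PIN, with 5.61, 4.87 and 4.97 in control HG-PIN. Tumour replicates 1 and 3 were above every HG-PIN array, while tumour replicate 2 was below its own HG-PIN lesion by 1.21. The mean was 6.17 ± 1.06 in tumours, 5.67 ± 0.47 in T-3Mb-Erg HG-PIN, against 5.15 ± 0.40 in control HG-PIN (n = 3 each). Tumours differed from control HG-PIN by 1.03 (2.04-fold, SE 0.48, interval -0.03 to 2.08, limma adjusted p = 0.559), and from T-3Mb-Erg HG-PIN by 0.51 (SE 0.48, adjusted p = 0.954). Both sizes rested on single tumours. The difference from control HG-PIN was 1.56 without tumour replicate 2 and 0.55 without tumour replicate 3. That from T-3Mb-Erg HG-PIN was 1.04 and 0.03 without the same arrays, and 0.25 when replicate 3 of T-3Mb-Erg HG-PIN was left out. The mean level of 10 fibroblast markers had the same order over the tumours, 6.0, 5.18 and 7.33, against 5.0, 5.2 and 4.52 in T-3Mb-Erg HG-PIN, with 4.26, 4.17 and 4.33 in control HG-PIN. In T-3Mb-Erg HG-PIN both Elk3 and these markers were highest on replicate 2, but replicates 1 and 3, close to each other for Elk3, differed in order. In control HG-PIN both were lowest on replicate 2. The highest control array was replicate 1 for Elk3 and replicate 3 for the markers, whose control levels lay close together. Of these markers 5 had a mean above the receptor level, and in tumours against T-3Mb-Erg HG-PIN 10 of 10 changes were positive with a median of 1.46 and none called. The part of fibroblasts in the Elk3 level was not tested. The array signal spread had the same order over the tumours as Elk3, at 6.49, 6.15 and 6.65.

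Elk4 was the steadiest of the 10, with 0.79 between its lowest and highest array. It ranged from 5.03 to 5.51 in tumours, from 4.92 to 5.29 in T-3Mb-Erg HG-PIN and from 4.72 to 5.05 in control HG-PIN. Group means of 5.24 ± 0.24, 5.08 ± 0.19 and 4.88 ± 0.17 in that order lay close together, and no change passed (0.16, 0.20 and 0.36 in the 3 comparisons, limma adjusted p from 0.749 to 0.998).

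**Figure D4:**
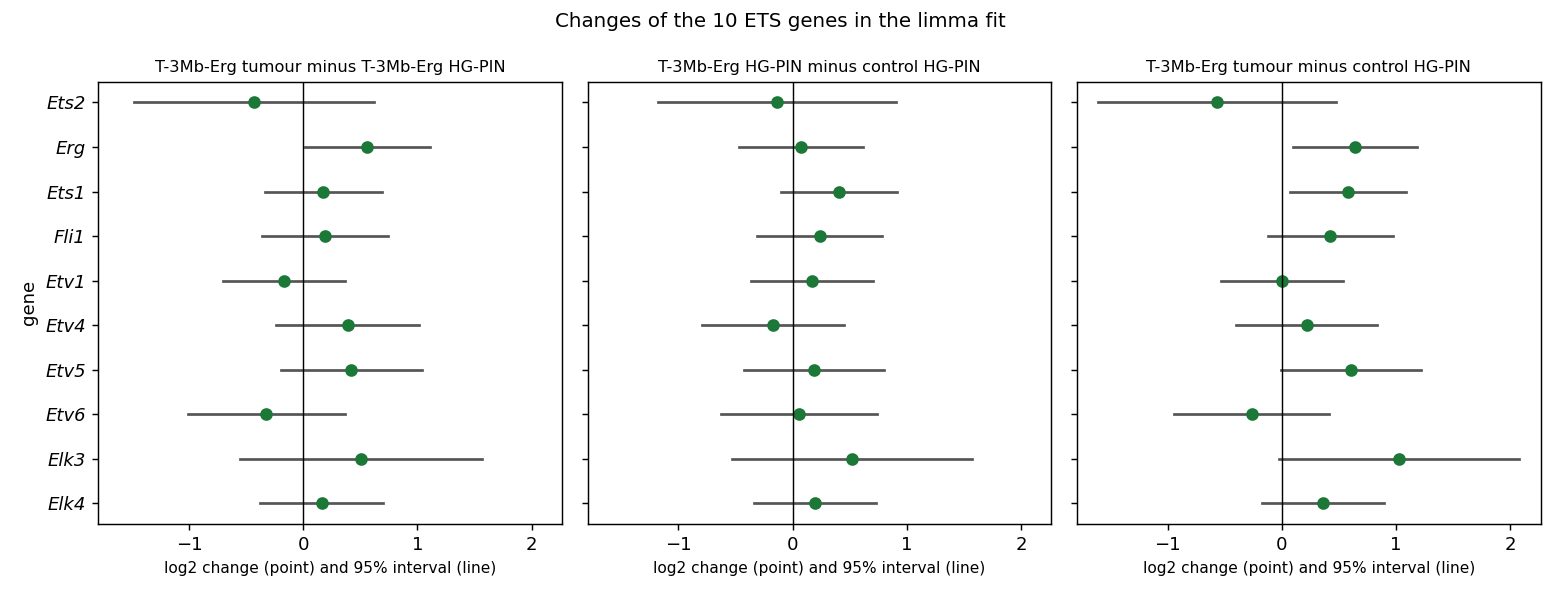
Log2 change (points) and 95% interval (lines) of the 10 genes in tumours against T-3Mb-Erg HG-PIN, T-3Mb-Erg HG-PIN against control HG-PIN, and tumours against control HG-PIN. The intervals of Ets2 and Elk3 are the widest, and those of Erg lie above 0 in both panels with tumours although its adjusted p did not pass.

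The 10 genes did not vary together. Over the 9 arrays, with no test, the highest Pearson correlation among the pairs was 0.776, between Ets2 and Etv6, and the lowest -0.851, between Ets2 and Etv4. These genes were set against the array signal spread above, and the part of that spread in their pair correlations was not tested. Among 4194 genes above the receptor level, predicted models and small RNA genes aside, those most like Ets2 over the 9 arrays were Ndufs4, Pnisr, Ankrd13a, Suds3 and Aff1, with Pearson r from 0.955 to 0.967 and rank correlations from 0.867 to 0.983. The same 5 genes correlated with the array signal spread at 0.755 to 0.862. Those most like Erg were Serpinh1 (r = 0.947, rank correlation 0.883), Gas7 (0.928, 0.833), Sars2 (0.899, 0.783), Snn (0.895, 0.883) and Igfbp4 (0.894, 0.883), and these correlated with the spread at -0.212 to 0.271. After the group means were taken out, their r with Erg was 0.744 to 0.906. They were the highest of 4195 genes searched over 9 arrays, only 1 of which had Erg above the receptor level. Neither list of like genes was tested.

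The remaining ETS genes contained the changes that the test called. Of 16 further family members 15 were named on the array and 13 were tested. In tumours against T-3Mb-Erg HG-PIN 0 were called higher and 2 lower, where 0.0661% and 0.216% of all genes were. In tumours against control HG-PIN 0 were called, where 0.108% of all genes were higher and 0.0721% lower, and between the HG-PIN groups 0 were called. The 2 called genes were Elf3 and Ehf, epithelial members of the family. Elf3 had 3.12, 3.55 and 4.05 in tumours, against 7.02, 6.51 and 5.93 in T-3Mb-Erg HG-PIN, with 5.69, 4.57 and 5.58 in control HG-PIN. Ehf had 3.95, 4.0 and 4.6 in tumours, against 7.42, 6.75 and 6.22 in T-3Mb-Erg HG-PIN, with 7.15, 5.79 and 7.09 in control HG-PIN. Tumours lay wholly below both HG-PIN groups for these genes. Of all genes, 6.43% did so against T-3Mb-Erg HG-PIN and 7.51% against control HG-PIN. Their calls came from the same arrays, so this is no separate support. The tumour values of Elf3 and Ehf lay below the receptor level, which limits the size of the fall. Elf3 changed by -2.91 (7.54-fold lower, SE 0.39, limma adjusted p = 0.0154) and Ehf by -2.62 (6.15-fold lower, SE 0.44, limma adjusted p = 0.0366) in tumours against T-3Mb-Erg HG-PIN. With a fixed term for each mouse (a replicate block) Elf3 kept its call (adjusted p = 0.0411) and Ehf did not pass (adjusted p = 0.0676).

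Single arrays ended these calls, and that of Ehf was also lost on the log2(value + 16) scale (-1.90, limma adjusted p = 0.0821). The limma adjusted p of Elf3 was 0.145 without tumour replicate 1, 0.14 when replicate 1 of T-3Mb-Erg HG-PIN was left out and 0.111 when replicate 2 was. That of Ehf was 0.249, 0.244 and 0.241 without the same arrays in the same order, 0.065 without tumour replicate 2 and 0.057 without control HG-PIN replicate 3. With single arrays left out the change lay between -3.26 and -2.68 for Elf3 and between -2.97 and -2.33 for Ehf. In tumours against T-3Mb-Erg HG-PIN Elf3 passed in 15 of 18 other settings and Ehf in 11 of 18, all read from these same arrays. Against control HG-PIN the changes in tumours were -1.71 for Elf3 (limma adjusted p = 0.11) and -2.50 for Ehf (limma adjusted p = 0.0539), and neither passed. Other settings called them: Ehf passed in 6 of 17 and Elf3 in 4 of 17. The adjusted p was 0.000761 for Ehf and 0.00192 for Elf3 with array weights, 0.00318 and 0.0163 with the signal spread as a term, 0.00797 and 0.0287 without the narrowest array of each group, and 0.0104 and 0.0427 without control HG-PIN replicate 2. Ehf also passed with quantile normalization (0.0201) and without tumour replicate 2 (0.0403). Between the HG-PIN groups Elf3 differed by 1.20 (limma adjusted p = 0.998) and Ehf by 0.12. Of 8 luminal epithelial markers 7 had a mean above the receptor level. Of these markers 4 (Cldn4, Krt8, Cdh1 and Epcam) were called lower in tumours against T-3Mb-Erg HG-PIN, where 0.216% of all genes were. The mean level of the 8 was 4.69 to 5.16 in tumours, 6.88 to 7.13 in T-3Mb-Erg HG-PIN, against 5.69 to 6.88 in control HG-PIN. Of the basal epithelial markers 1 of 6 was called lower, Krt15 (-3.0). With the fixed term for each mouse Cldn4 kept its call (limma adjusted p = 0.0121), while Krt8, Cdh1, Epcam and Krt15 did not pass (0.0609, 0.0682, 0.0555 and 0.0572). Cdh1 and Epcam did not pass on the log2(value + 16) scale (0.0821 each). All 5 of these marker calls were lost without tumour replicate 1 (adjusted p from 0.071 to 0.302) and without replicate 1 of T-3Mb-Erg HG-PIN (0.0562 to 0.284). Without replicate 2 of T-3Mb-Erg HG-PIN Krt8, Cdh1, Epcam and Krt15 lost theirs (limma adjusted p from 0.0771 to 0.261), and Cldn4 did not (0.0287). Cdh1 and Epcam also lost theirs without tumour replicate 2 (0.054 and 0.0805) and without control HG-PIN replicate 3 (0.0695 and 0.0652). Of 8 smooth muscle markers 7 had a negative change in tumours against T-3Mb-Erg HG-PIN and 1 a positive one, with a median of -0.90 and none called. Their mean level was 6.95 on replicate 1 of T-3Mb-Erg HG-PIN and 4.43 to 5.66 on the other arrays. The part of epithelial or smooth muscle content in the falls of Elf3 and Ehf was not tested.

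**Figure D5:**
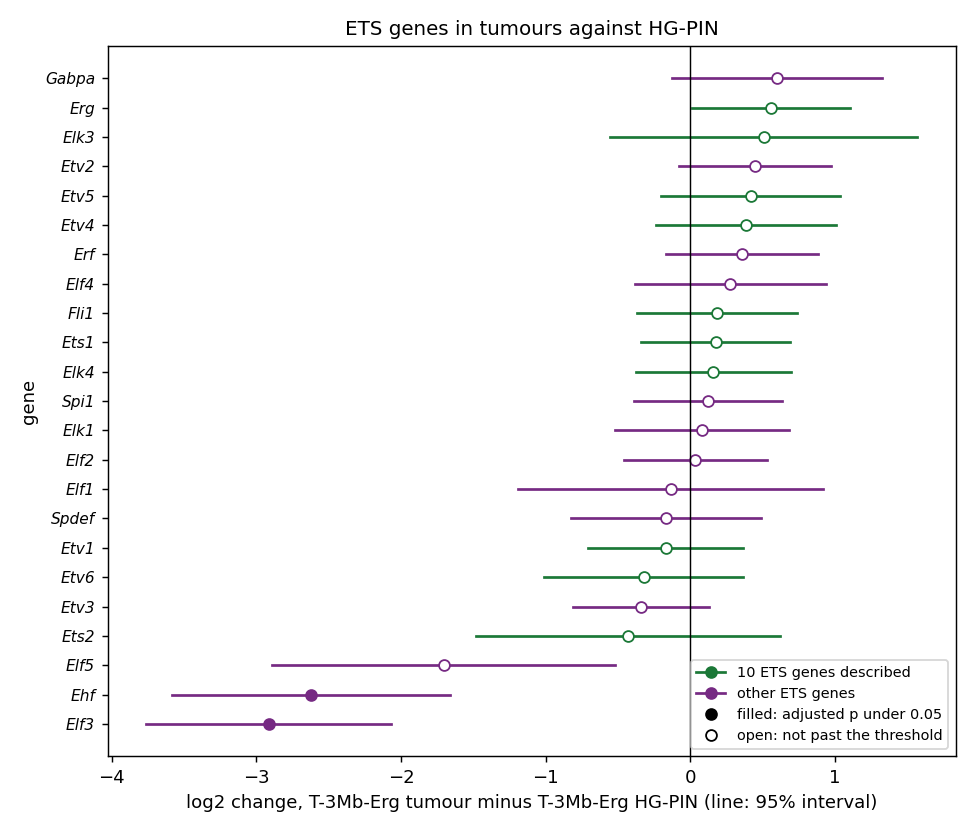
Log2 change (points) with 95% interval (lines) of the tested ETS genes in tumours against T-3Mb-Erg HG-PIN, ordered by change, with the 10 genes described in green and further family members in purple. Filled points passed the test: they are Elf3 and Ehf, at -2.91 and -2.62, and the 10 genes lie between -0.43 and 0.56.

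The other tested ETS genes did not pass. Elf5, a factor of secretory epithelium, had 2.68, 2.74 and 2.34 in tumours, against 5.56, 3.92 and 3.39 in T-3Mb-Erg HG-PIN, with 3.10, 4.54 and 2.72 in control HG-PIN (tumours against T-3Mb-Erg HG-PIN -1.70, limma adjusted p = 0.362). Spdef, a factor of secretory prostate epithelium, stood at 4.98 ± 0.51 in tumours, 5.15 ± 0.26 in T-3Mb-Erg HG-PIN, against 5.43 ± 0.17 in control HG-PIN (n = 3 each). Spi1, the myeloid factor PU.1, stood at 4.38 ± 0.17, 4.26 ± 0.13 and 4.23 ± 0.40 in the same groups. Gabpa, a ubiquitous member, differed by 0.60 in tumours against T-3Mb-Erg HG-PIN (interval -0.13 to 1.33). Spib and Spic, factors of lymphoid and myeloid cells, were below the signal filter with means of 2.89 and 2.73.

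Genes that act on ETS proteins or follow them were read from 3 further lists. Of 7 tested regulators of ETS proteins none was called in any comparison, with a median of 0.16 in tumours against T-3Mb-Erg HG-PIN. Spop, an adaptor of the ubiquitin ligase that targets ERG, had the smallest p there: 4.13 ± 1.19 in tumours and 5.35 ± 0.43 in T-3Mb-Erg HG-PIN (n = 3 each; change -1.23, limma adjusted p = 0.529). Next came Trib1, a pseudokinase adaptor of the COP1 ligase (-0.30, limma adjusted p = 0.83). Of 12 tested MAP kinase output genes none was called, with 7 positive and 5 negative and a median of 0.32. Spred1, an inhibitor of RAS signalling, differed by 1.29 (limma adjusted p = 0.1) and Phlda1 by -1.66 (limma adjusted p = 0.104) in tumours against T-3Mb-Erg HG-PIN. Of 17 tested genes associated with ERG in prostate cancer none was called, with 12 positive and 5 negative and a median of 0.16. The smallest p values were those of Vim, a mesenchymal filament gene (1.80, limma adjusted p = 0.256), and Lef1, a WNT pathway factor (1.22, limma adjusted p = 0.457). Between the HG-PIN groups the medians of these 3 lists were 0.10, 0.04 and 0.11 with none called, and the smallest p was that of Plaur, the urokinase receptor (-0.79, limma adjusted p = 0.998).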

How the data were processed

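Per the labels' protocols, RNA from laser-captured, formalin-fixed lesions went through NuGEN Ovation amplification before hybridisation to 1-colour arrays. The deposited files hold linear intensity for 41345 probe sets (medians of 13.6 to 15.4 per array). How the authors corrected background, summarised probes and normalized is not stated in the sources at hand, and 3 arrays per group limit the precision.

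Names came from the platform annotation, updated through a RefSeq gene table (GRCm38.p6): 23521 had 1 symbol (23328 matched by identifier), 1814 several and 16010 none. The brightest probe set per symbol was kept, values were log2-transformed with no pseudocount, and the lowest 25% of genes by mean (below 3.25) were removed.

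The fit used limma 3.58.1 (R 4.3.3) over 9 arrays, with the mouse as a random block (consensus correlation -0.01), empirical Bayes with a mean trend and Benjamini-Hochberg adjustment. The code was run on simulated arrays without a mouse effect, which could not check the handling of paired arrays or the signal spread term. Tumour and HG-PIN arrays of T-3Mb-Erg mice pair by mouse, per the labels' mouse identifiers; the same-mouse correlations of deviations from the group means were 0.17, 0.10 and -0.30. Correlations used exact permutation over all orders of 9 arrays.

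An allele shared by both genotypes is not reported here. The members, lists and alternatives were chosen with earlier results of these data known. Named genes were the 10 members, up to 4 called genes of each list or else those of smallest p, the 5 genes most like Ets2 and Erg, and Tmprss2; Elf5, Spdef, Spi1, Gabpa, Spib and Spic were chosen after their values were seen.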

Additional observations from a re-analysis of the deposited data

How the results depend on the processing

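In 526 values of the 30 gene-by-comparison results for the 10 genes under other settings, 0 were called by limma, and the smallest adjusted p was 0.0654 (Elk3, tumours against control HG-PIN, array weights). The sign turned in 20 of them, in 12 results. Among settings that keep all groups' arrays or drop the narrowest of each group, it turned for Etv6 between the HG-PIN groups with array weights (-0.13) and the signal range term (-0.0093), and for Ets2 (0.10) and Elk4 (-0.0008) in tumours against T-3Mb-Erg HG-PIN without the array of narrowest signal in each group. The other probe sets of Etv1 (0.10) and Etv5 (-0.11) turned it too. Ehf between the HG-PIN groups stood at -0.21 with array weights and -0.0346 without the narrowest arrays. Leaving out single arrays gave ranges that cross 0 for Ets2 (-0.90 to 0.20 in tumours against T-3Mb-Erg HG-PIN, -0.40 to 0.17 between the HG-PIN groups, -1.03 to 0.0683 in tumours against control HG-PIN), Ets1 (-0.0123 to 0.33 in tumours against T-3Mb-Erg HG-PIN) and Erg, Etv6 and Ehf (-0.10 to 0.24, -0.19 to 0.27 and -0.32 to 0.47 between the HG-PIN groups). They also cross 0 for Etv4 (-0.36 to 0.0408 between the HG-PIN groups, -0.0204 to 0.49 in tumours against control HG-PIN) and Etv1 (-0.0913 to 0.0996 there).

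Counts of called genes moved more. In tumours against T-3Mb-Erg HG-PIN 47 genes were called by limma; quantile normalization gave 72, log2(value + 16) 18, array weights 405, the signal range term 194 and leaving out the narrowest arrays 182. The mouse as a fixed replicate block gave 26, of which 20 were among the 47, and no replicate block 49; beyond the calls given in the report for Ehf, Krt8, Cdh1, Epcam and Krt15, the fixed block changed no other call of a gene named here for that comparison. Single arrays moved the count between 0 and 110: it was 0 without tumour replicate 1, 5, 8 and 99 when replicate 1, 2 or 3 of T-3Mb-Erg HG-PIN was left out, 110 and 94 without tumour replicates 2 and 3, and 76 and 21 without control HG-PIN replicates 2 and 3. Between the HG-PIN groups 0 genes were called, against 4 on the 6 arrays compared, 9 with array weights, 7 with the range term, 4 without the narrowest arrays and 0 to 6 without single arrays. In tumours against control HG-PIN 30 were called, against 65, 8, 7, 938, 196 and 260 with quantile normalization, log2(value + 16), the 6 arrays, array weights, the range term and without the narrowest arrays, and 0 to 261 without single arrays. The cause of these moves was not tested. Alternatives for Elf3, Ehf, Elf5, Tmprss2 and the markers were added after seeing the data. Without the narrowest arrays 1 mouse pair is left and no block correlation could be estimated, so that fit has none.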
